A study of Saccharomyces cerevisiae with 18 samples.

Results

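Transcripts of 9 yeast genes for eisosome and Sur7 family membrane proteins were followed in 18 RNA-seq libraries. The genes are PIL1 (YGR086C), LSP1 (YPL004C), SEG1 (YMR086W), SUR7 (YML052W), FMP45 (YDL222C), YNL194C, PUN1 (YLR414C), NCE102 (YPR149W) and FHN1 (YGR131W), chosen by name from the 7126 genes in the count tables. The choice was made with earlier results of these data known. All 9 were found in both tables and all 9 passed the filter on low counts. Polyadenylated RNA was taken from BY4741 yeast in exponential growth in YPD, a rich medium, either in salt (15 min after addition of 0.4 M NaCl) or in regular medium (basal). Experiment 1 holds wild-type (WT) salt and WT basal cells, with libraries from a stranded TruSeq kit. Experiment 2 holds HOG1-KO cells in salt and basal, whose HOG1 gene was exchanged for a KAN cassette (hog1::KAN), and WT cells in salt and basal, with libraries from the Lexogen CORALL kit. The strain marker background also differs between the experiments. Hog1 is the kinase that yeast activates under osmotic stress. Per the labels there were 3 biological replicates in each of 6 groups. Library totals ranged from 11135883 to 16527859 counts. The sources used here do not say whether the strain with the deletion is a single clone. HOG1 itself had 0 counts in the HOG1-KO salt libraries and 1 count over the HOG1-KO basal libraries, against 12353 and 8751 over the WT salt and WT basal libraries of experiment 2.

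Eisosomes are protein assemblies under the yeast plasma membrane that shape furrows in it. Pil1 and Lsp1, curved BAR domain proteins, form the coat of the furrow, and Seg1 helps to build and stabilise it. Sur7, its relatives Fmp45, Ynl194c and Pun1, and the tetraspan proteins Nce102 and Fhn1 sit in the membrane domain above the coat. The furrows hold nutrient transporters and regulators of sphingolipid synthesis, and they flatten when the membrane is stretched and deepen when the cell shrinks. The comparisons below ask how the transcripts of this domain stood 15 min after osmotic stress and what was left of the response without HOG1.

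Among the libraries of experiment 2, replicate 1 of WT basal and replicate 2 of WT salt deviated from the rest of their groups in a shared way, with r = 0.761 between these deviations across 6107 genes, which share library scaling and are not independent replicates. The lower members in WT basal replicate 1 included SUR7 (-0.74, log2 against the mean of the other libraries of the group) and NCE102 (-0.76). In WT salt replicate 2 the same measure was -0.96 for SUR7, -0.92 for NCE102, -0.86 for FMP45, -1.02 for YNL194C and 0.36 for PIL1. Levels are given as CPM, counts scaled to a common library size by the TMM method within each experiment. They are relative to all counted RNA, so a change in RNA per cell cannot be told apart from them. Whether counting used the strand is not given in the sources, so reads from antisense transcripts over these genes could be included.

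**Figure D1:**
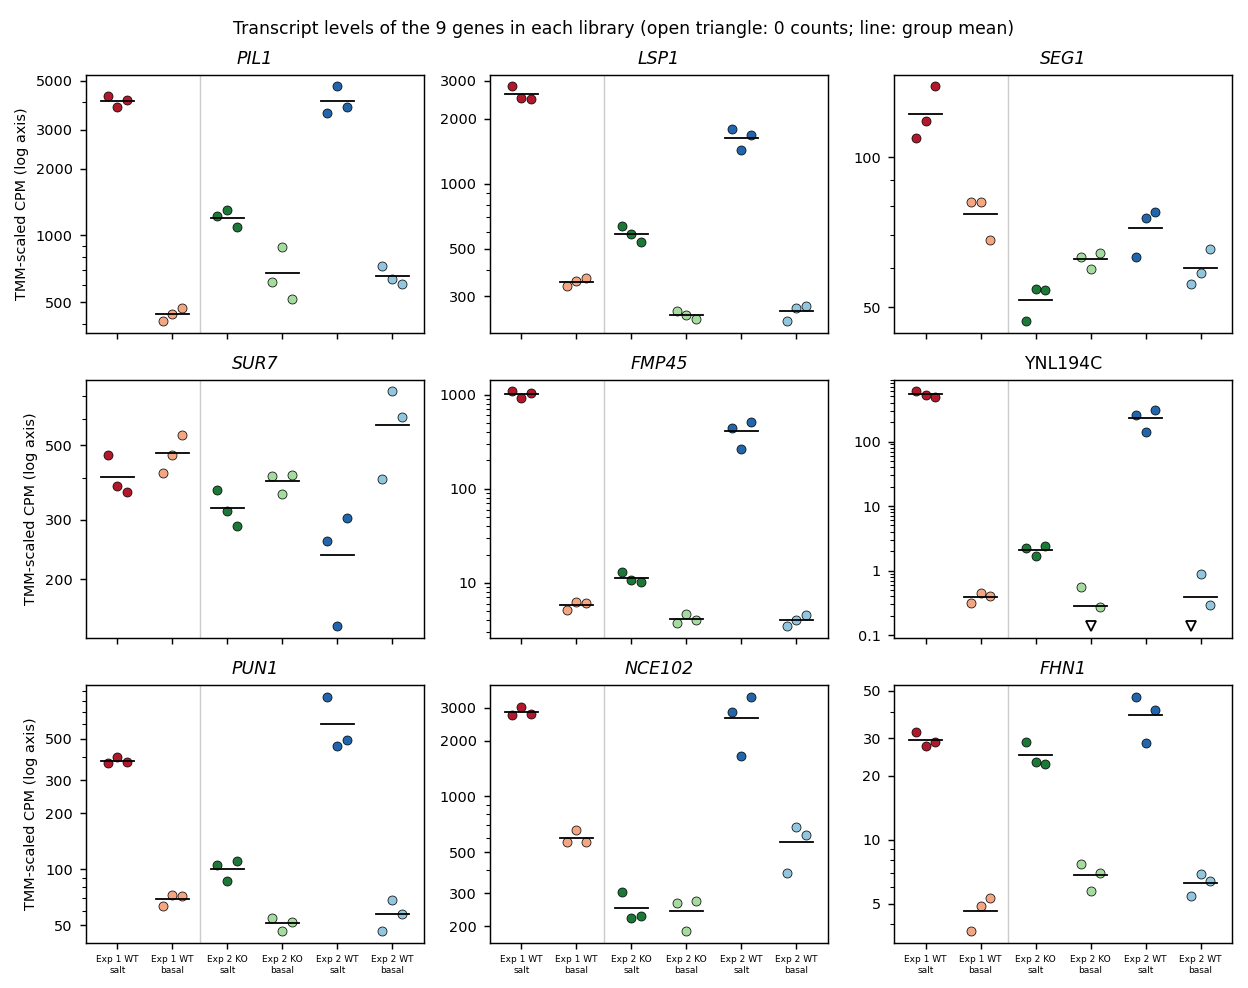
TMM-scaled CPM of each gene (log axis, 1 panel per gene) in each of the 18 libraries, by group, with salt left of basal and HOG1-KO left of WT in experiment 2. Points are libraries, lines are group means, and open triangles mark libraries with 0 counts. FMP45 and YNL194C show the widest gap between WT salt and WT basal cells, and every HOG1-KO library stands below every WT library of experiment 2 for NCE102.

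In WT cells of experiment 1, 8 of the 9 genes rose in salt (edgeR quasi-likelihood test, adjusted p under 0.05), where 35.4% of all 5878 genes tested were higher. None of the 9 fell, where 33.8% of all genes were lower, and 0 of the 9 had a negative change at an unadjusted p under 0.05 or a DESeq2 call downwards. The median log2 change of the 9 was 2.67, against 0.02 for all genes. In WT cells of experiment 2, 7 of the 9 rose, against 30.1% of 6107 genes, and 1 fell, against 27.2%, with a median of 2.64 against 0.04. In HOG1-KO cells 6 of the 9 rose, against 28.8% of all genes, and 0 fell, against 25.6%, also at an unadjusted p under 0.05 and with DESeq2. The median there was 0.98, against 0.02 for all genes. Summed over the 9 genes, the level was 11982 ± 433 CPM in WT salt and 2022 ± 120 CPM in WT basal cells of experiment 1 (SD, n = 3 each). In experiment 2 the sum was 2555 ± 196 CPM in HOG1-KO salt and 1678 ± 119 CPM in HOG1-KO basal cells, and 9907 ± 900 CPM in WT salt and 2181 ± 304 CPM in WT basal cells.

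**Figure D2:**
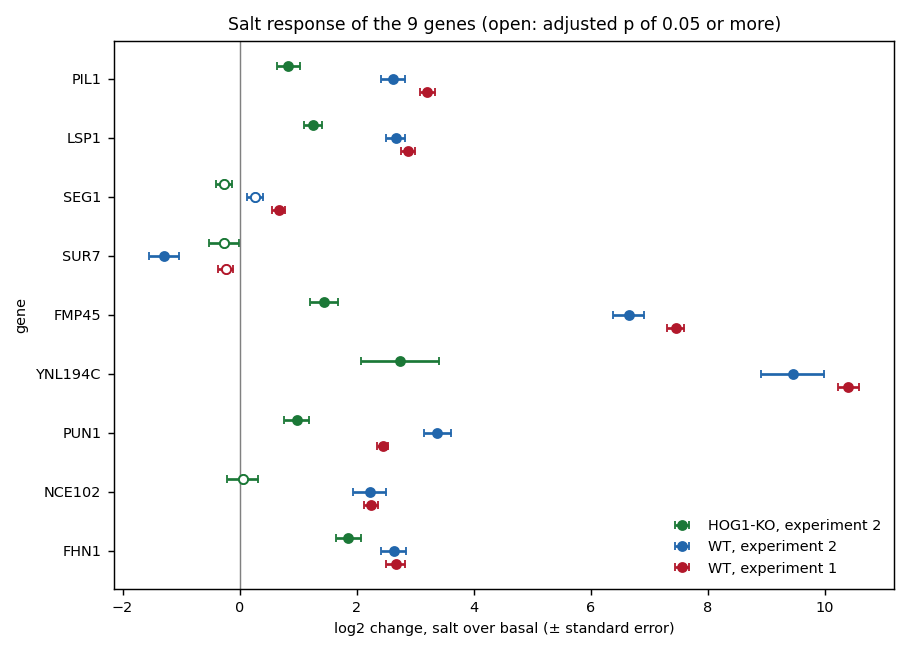
Fitted log2 change in salt over basal cells (± standard error) for each of the 9 genes in HOG1-KO cells of experiment 2, WT cells of experiment 2 and WT cells of experiment 1. Filled points passed the edgeR test at an adjusted p under 0.05 and open points did not. FMP45 and YNL194C lie between 6.65 and 10.40 in WT cells and at 1.45 and 2.75 in HOG1-KO cells.

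PIL1 encodes the main coat protein of the eisosome. In experiment 1 its level was 4261, 3821 and 4094 CPM in the WT salt libraries, against 411, 439 and 470 CPM in the WT basal libraries. In experiment 2 it was 1221, 1298 and 1089.8 CPM in HOG1-KO salt and 618, 890 and 516 CPM in HOG1-KO basal libraries. The WT salt libraries of experiment 2 had 3575, 4727 and 3804 CPM, against 728, 636 and 602 CPM in WT basal libraries. Salt and basal libraries did not overlap in any of these comparisons, and every HOG1-KO salt library lay below every WT salt library. The log2 change was 3.21 ± 0.13 in experiment 1 (edgeR adjusted p = 3.93e-10) and, in experiment 2, 0.83 ± 0.20 in HOG1-KO cells (0.00275) and 2.62 ± 0.21 in WT cells (4.50e-08).

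LSP1, the paralog of PIL1, had 2825, 2486 and 2456 CPM in WT salt and 337, 354 and 365 CPM in WT basal libraries of experiment 1. In experiment 2 it had 634, 587 and 537 CPM in HOG1-KO salt and 257, 246 and 235 CPM in HOG1-KO basal libraries. The WT libraries had 1786, 1434 and 1686 CPM in salt, against 231, 267 and 272 CPM in basal cells. Here too no salt library overlapped a basal one, and the HOG1-KO salt libraries lay between the WT basal and WT salt libraries. Its log2 change was 2.88 ± 0.12 in experiment 1 (edgeR adjusted p = 5.84e-10), 1.25 ± 0.15 in HOG1-KO cells (6.75e-06) and 2.67 ± 0.16 in WT cells of experiment 2 (1.19e-09). Of the pairs among the 8 genes that could be compared, PIL1 and LSP1 had the most similar pattern, with a root mean square log2 difference of 0.25 over the 18 libraries after centring within each experiment. The log2 ratio of PIL1 to LSP1 per coding length was 1.05 in HOG1-KO salt and 1.43 in HOG1-KO basal libraries, and 1.31 in WT salt and 1.36 in WT basal libraries of experiment 2 (exact permutation p = 0.2 and 0.8, two-sided). In experiment 1 it was 0.66 in WT salt and 0.33 in WT basal libraries without overlap (exact permutation p = 0.1, the smallest that 3 against 3 libraries can give).

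SEG1, the assembly factor of the coat, changed little. It had 110, 118 and 139 CPM in WT salt libraries of experiment 1, against 81.5, 81.3 and 68.3 CPM in WT basal libraries. In experiment 2 its level was 47.0, 54.4 and 54.1 CPM in HOG1-KO salt and 63.2, 59.7 and 64.4 CPM in HOG1-KO basal libraries. The WT libraries had 63.0, 75.4 and 77.7 CPM in salt and 55.8, 58.6 and 65.6 CPM in basal cells. Salt lay above basal in experiment 1, below basal in HOG1-KO cells, and overlapped it in WT cells of experiment 2. SEG1 rose in experiment 1 (0.67 ± 0.11 on the log2 scale, edgeR adjusted p = 1.75e-04). In experiment 2 its change did not pass the test in HOG1-KO cells (-0.27 ± 0.13, adjusted p = 0.0978) or in WT cells (0.26 ± 0.13, 0.0988). In WT cells it passed without WT salt replicate 1 (0.35, edgeR adjusted p = 0.0407) and under scaling by total counts (0.43, 0.0481), with a range of 0.0407 to 0.309 over the alternatives run. In HOG1-KO cells it passed without both deviating WT libraries (edgeR adjusted p = 0.0322) and in a fit of the HOG1-KO libraries by themselves (0.0204), in a range up to 0.707. SEG2, its paralog, rose in experiment 1 (0.69 ± 0.18, edgeR adjusted p = 0.00405) and did not pass in HOG1-KO cells (-0.05 ± 0.20, 0.839) or WT cells of experiment 2 (0.46 ± 0.20, 0.0605).

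SUR7, the founding member of its family and a marker of the membrane domain, did not share in the rise. It had 468, 379 and 362 CPM in WT salt and 414, 469 and 538 CPM in WT basal libraries of experiment 1, which overlapped. In experiment 2 the level was 369, 319 and 287 CPM in HOG1-KO salt and 406, 357 and 409 CPM in HOG1-KO basal libraries, also with overlap. WT salt libraries had 260.0, 145 and 304 CPM, against 396, 723 and 609 CPM in WT basal libraries, and these did not overlap. SUR7 fell in WT cells of experiment 2 (-1.29 ± 0.26, edgeR adjusted p = 5.29e-04). The lowest salt and the lowest basal value there came from the deviating libraries, and without both the change was -1.24 (adjusted p = 5.94e-07). Its change did not pass in experiment 1 (-0.23 ± 0.13, edgeR adjusted p = 0.121) or in HOG1-KO cells (-0.27 ± 0.25, 0.389). In experiment 1 it passed without WT salt replicate 1 (-0.35, edgeR adjusted p = 0.00603) and under scaling by total counts (0.0125), in a range of 0.00603 to 0.385. In HOG1-KO cells it passed without both deviating WT libraries (edgeR adjusted p = 0.0412) and in a fit of the HOG1-KO libraries by themselves (0.0341), in a range up to 0.720.

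FMP45, a Sur7 relative linked to sporulation and sphingolipid content, had 1081, 926 and 1039 CPM in WT salt libraries of experiment 1, against 5.14, 6.20 and 6.07 CPM in WT basal libraries. In HOG1-KO cells it had 13.1, 10.6 and 10.2 CPM in salt and 3.76, 4.62 and 4.08 CPM in basal libraries. The WT libraries of experiment 2 had 441, 261 and 514 CPM in salt, against 3.48, 4.04 and 4.54 CPM in basal cells. Each salt group lay wholly above its basal group, and the highest HOG1-KO salt library was far below the lowest WT salt library. The log2 change was 7.45 ± 0.14 in experiment 1 (edgeR adjusted p = 3.27e-12), which placed FMP45 at rank 11 of 5878 genes. In experiment 2 it was 1.45 ± 0.24 in HOG1-KO cells (edgeR adjusted p = 1.22e-04, rank 522 of 6107) and 6.65 ± 0.27 in WT cells (2.74e-11, rank 26).

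YNL194C, the paralog of FMP45, was close to absent without salt. Over the 3 libraries of each group it had 21521 counts in WT salt and 14 in WT basal cells of experiment 1, 106 in HOG1-KO salt and 13 in HOG1-KO basal cells, and 8976 in WT salt and 12 in WT basal cells of experiment 2. In CPM these were 598, 523 and 494 in WT salt and 0.317, 0.443 and 0.410 in WT basal libraries of experiment 1. HOG1-KO salt libraries had 2.22, 1.69 and 2.43 CPM, against 0.564, 0 and 0.277 CPM in HOG1-KO basal libraries. All HOG1-KO salt libraries were above all HOG1-KO basal ones and more than an order of magnitude below the WT salt libraries of experiment 2, which had 255, 139 and 312 CPM. The WT basal libraries of experiment 2 had 0, 0.873 and 0.288 CPM. The fitted log2 change was 10.40 ± 0.18 in experiment 1 (edgeR adjusted p = 3.10e-12, rank 2), 2.75 ± 0.67 in HOG1-KO cells (0.00282, rank 135) and 9.46 ± 0.54 in WT cells of experiment 2 (8.78e-10, rank 3). With so few basal counts these fitted values depend on the counts added by the fit, and their size is imprecise.

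PUN1, the remaining Sur7 relative, known to respond to nitrogen stress, had 370.0, 398 and 374 CPM in WT salt and 63.7, 73.0 and 72.3 CPM in WT basal libraries of experiment 1. In experiment 2 it had 105, 86.3 and 111 CPM in HOG1-KO salt and 55.0, 46.7 and 52.3 CPM in HOG1-KO basal libraries. The WT libraries had 843, 459 and 492 CPM in salt, against 46.6, 68.1 and 57.7 CPM in basal cells. Salt libraries lay above basal ones in all 3 comparisons, and 1 WT salt library of experiment 2 was well above the other two. PUN1 rose by 2.45 ± 0.09 on the log2 scale in experiment 1 (edgeR adjusted p = 2.99e-10), 0.98 ± 0.22 in HOG1-KO cells (0.00159) and 3.38 ± 0.24 in WT cells of experiment 2 (8.11e-09).

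The make-up of the Sur7 family was compared per coding length within each library, which needs no scaling between libraries. SUR7 gave 16.9% ± 1.32 of the transcripts of SUR7, PUN1, FMP45 and YNL194C in WT salt and 84.6% ± 1.04 in WT basal cells of experiment 1 (SD, n = 3 each). In experiment 2 its share was 71.5% ± 3.76 in HOG1-KO salt and 86.1% ± 0.330 in HOG1-KO basal cells, and 15.1% ± 2.59 in WT salt and 88.9% ± 1.27 in WT basal cells. SUR7 was thus the most abundant of the 4 transcripts in HOG1-KO salt cells and a minor share in WT salt cells. FMP45 held 41.8% ± 2.11 in WT salt and 1.02% ± 0.0693 in WT basal cells of experiment 1, 2.43% ± 0.0980 in HOG1-KO salt and 0.902% ± 0.165 in HOG1-KO basal cells, and 25.4% ± 3.86 in WT salt and 0.631% ± 0.132 in WT basal cells of experiment 2. YNL194C held 22.7% ± 1.07 in WT salt cells of experiment 1, 0.468% ± 0.0914 in HOG1-KO salt and 15.0% ± 3.10 in WT salt cells of experiment 2. PUN1 was the largest share in WT salt cells of experiment 2, at 44.5% ± 9.50, against 18.5% ± 1.76 in WT salt cells of experiment 1 and 25.6% ± 3.74 in HOG1-KO salt cells. The log2 ratio of FMP45 to SUR7 was -4.88 in HOG1-KO salt and 0.76 in WT salt libraries, without overlap (exact permutation p = 0.1, two-sided, the smallest possible here).

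**Figure D3:**
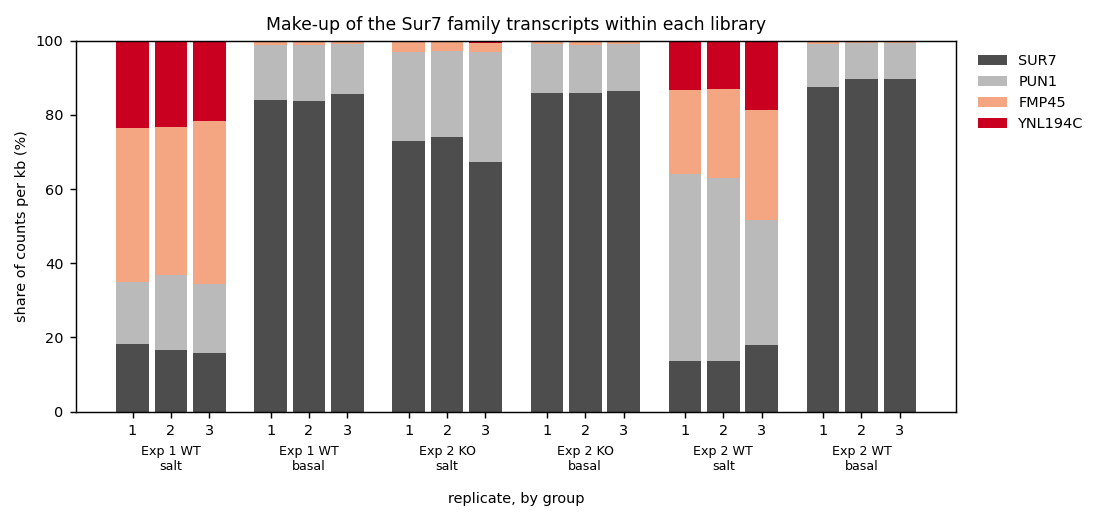
Share of each Sur7 family gene in the summed counts per kb of SUR7, PUN1, FMP45 and YNL194C, in percent, with 1 bar per library and the libraries grouped as labelled below the axis. SUR7 makes up 67.2% to 74.2% in the HOG1-KO salt libraries and 13.6% to 18.1% in the WT salt libraries of experiment 2.

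NCE102, a tetraspan protein that organises the membrane domain and responds to sphingolipid levels, had 2737, 3023 and 2775 CPM in WT salt and 567, 663 and 567 CPM in WT basal libraries of experiment 1. In experiment 2 it had 304, 220.0 and 227 CPM in HOG1-KO salt and 265, 188 and 272 CPM in HOG1-KO basal libraries, which overlapped. The WT libraries had 2845, 1652 and 3453 CPM in salt, against 387, 687 and 621 CPM in basal cells. Every HOG1-KO library, in salt or not, lay below every WT library of experiment 2. NCE102 rose in WT cells, by 2.25 ± 0.12 on the log2 scale in experiment 1 (edgeR adjusted p = 6.77e-09) and 2.23 ± 0.28 in experiment 2 (6.50e-06). In HOG1-KO cells its change was 0.05 ± 0.27, which was not called (edgeR adjusted p = 0.887). NCE102 was the single gene among the 7 that rose in WT cells of both experiments without a called rise in HOG1-KO cells.

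FHN1, the paralog of NCE102 that can stand in for it, had 32.0, 27.6 and 28.8 CPM in WT salt and 3.72, 4.87 and 5.33 CPM in WT basal libraries of experiment 1. HOG1-KO cells had 28.7, 23.3 and 22.6 CPM in salt and 7.71, 5.76 and 6.98 CPM in basal libraries, and WT cells of experiment 2 had 47.1, 28.5 and 40.6 CPM in salt and 5.43, 6.87 and 6.42 CPM in basal libraries. Salt and basal libraries were apart in all 3 comparisons, while HOG1-KO salt and WT salt libraries overlapped narrowly. The log2 change was 2.67 ± 0.16 in experiment 1 (edgeR adjusted p = 1.91e-08), 1.86 ± 0.21 in HOG1-KO cells (3.14e-06) and 2.64 ± 0.21 in WT cells of experiment 2 (4.61e-08). Between the paralogs, the log2 ratio of NCE102 to FHN1 per coding length was 3.33 ± 0.08 in HOG1-KO salt and 5.15 ± 0.13 in HOG1-KO basal libraries, without overlap, and 6.07 ± 0.30 in WT salt and 6.47 ± 0.27 in WT basal libraries of experiment 2 (SD, n = 3 each). The exact permutation p was 0.1 for salt against basal in HOG1-KO cells, 0.2 in WT cells, and 0.1 for HOG1-KO against WT in salt and in basal cells, two-sided.

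Between the strains in basal cells, 1 of the 9 genes differed, where 0.982% of 6107 genes differed in either direction and 0.508% were lower. NCE102 was lower in HOG1-KO basal cells, at 242 ± 46.8 CPM against 565 ± 158 CPM in WT basal cells (SD, n = 3 each), a log2 difference of -1.23 ± 0.27 (edgeR adjusted p = 0.0460). That call was lost with the replicate number as a block (-1.26, edgeR adjusted p = 0.0943), with RLE scaling (0.0566) and with a filter of 10 CPM in 3 libraries (0.0611). It was also lost in 9 of the 12 fits that left out a single library, with differences between -1.32 and -1.06 among those 9, and it held without WT basal replicate 1, WT salt replicate 2 or WT salt replicate 3. Its adjusted p ranged from 3.81e-05 to 0.288 over the alternatives run. YNL194C had 13 counts over the HOG1-KO basal and 12 over the WT basal libraries, with 1 library at 0 in each group, so a difference was not detectable at this depth. The other 7 genes did not pass, with SUR7 next at -0.56 ± 0.25 (edgeR adjusted p = 0.450), which passed without both deviating WT libraries (-0.77, 7.88e-04) in a range of 7.88e-04 to 0.964. None of the 9 was higher in HOG1-KO basal cells, also at an unadjusted p under 0.05.

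In salt, 8 of the 9 genes were lower in HOG1-KO than in WT cells, where 12.4% of 6107 genes were lower, and 0 were higher, where 12.8% were higher. At an unadjusted p under 0.05 these counts were also 8 and 0, and DESeq2 called 8. The log2 differences were -1.75 ± 0.21 for PIL1, -1.48 ± 0.15 for LSP1, -5.16 ± 0.24 for FMP45, -6.79 ± 0.43 for YNL194C, -2.57 ± 0.23 for PUN1 and -3.40 ± 0.30 for NCE102, with edgeR adjusted p between 3.89e-10 and 1.18e-05. SUR7 was the member that did not pass, at 0.46 ± 0.25 (edgeR adjusted p = 0.208). It passed, as higher in HOG1-KO salt cells, under scaling by total counts (0.68, edgeR adjusted p = 0.0177, range 0.0177 to 0.453). SEG1 (-0.47 ± 0.13, edgeR adjusted p = 0.0147) and FHN1 (-0.64 ± 0.19, 0.0244) had smaller differences. SEG1 did not pass under scaling by total counts (-0.30, edgeR adjusted p = 0.240), without WT salt replicate 3 (-0.42, 0.0610) or without HOG1-KO salt replicate 1 (-0.41, 0.0725), in a range from 0.00209. FHN1 did not pass under that scaling (-0.44, edgeR adjusted p = 0.123), without WT salt replicates 1 (-0.47, 0.114) or 3 (-0.60, 0.0694), or without HOG1-KO salt replicates 2 (-0.59, 0.0981) or 3 (-0.57, 0.104), in a range from 1.51e-04.

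The difference between the salt responses was tested itself, as the response in HOG1-KO cells minus the response in WT cells of experiment 2. It shares its libraries with the comparisons above. Responses of 6 of the 9 genes were lower in HOG1-KO cells, where 5.24% of 6107 genes had a lower and 4.57% a higher response, and the median of the 9 was -1.79 against 0.00 for all genes. The differences were -1.79 ± 0.29 for PIL1 (edgeR adjusted p = 6.48e-04), -1.42 ± 0.21 for LSP1 (3.59e-04), -5.20 ± 0.34 for FMP45 (6.65e-08), -2.41 ± 0.31 for PUN1 (8.79e-05) and -2.18 ± 0.39 for NCE102 (0.00152). These 5 passed under all 19 alternatives run. YNL194C had the largest difference, -6.71 ± 1.29 (edgeR adjusted p = 0.00288), and passed in 18 of 19 alternatives, the exception being the fit without HOG1-KO basal replicate 1, which holds 9 of the 13 basal counts in HOG1-KO cells (-5.74, adjusted p = 0.115, range 8.88e-06 to 0.115). Of these 6 genes, 5 still rose in HOG1-KO cells, and NCE102 did not pass there.

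SEG1, SUR7 and FHN1 did not pass this test, at -0.53 ± 0.19 (edgeR adjusted p = 0.0951), 1.02 ± 0.36 (0.0951) and -0.78 ± 0.29 (0.125). FHN1 passed without WT salt replicate 2 (-0.91, edgeR adjusted p = 0.0169, range 0.0130 to 0.292). SUR7 passed, with a response less negative in HOG1-KO cells, without WT basal replicate 1 (1.23, edgeR adjusted p = 0.0193), without WT salt replicate 3 (1.24, 0.0461), under scaling by total counts (0.0242) and with DESeq2 (0.0469), in a range of 6.93e-04 to 0.238. SEG1 passed without WT salt replicate 1 (-0.62, edgeR adjusted p = 0.0489) and with DESeq2 (0.0459), in a range up to 0.303. Without both deviating WT libraries SUR7 (0.97, edgeR adjusted p = 6.93e-04) and FHN1 (-0.88, 0.0130) passed.

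**Figure D4:**
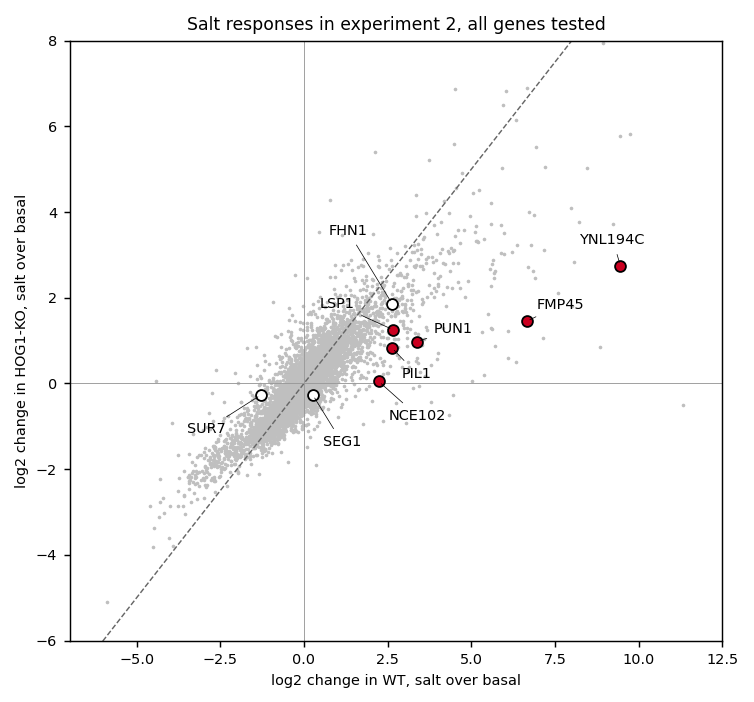
Log2 change in salt over basal cells in HOG1-KO (vertical axis) against WT (horizontal axis) of experiment 2. Grey points are the genes tested in both experiments, large points are the 9 genes, and a dashed line marks where both changes are equal. Red points passed the test of the difference between the responses (edgeR adjusted p under 0.05) and white points did not. FMP45 and YNL194C lie farthest below the line among the 9, and FHN1 lies nearest to PIL1 and LSP1 on the WT axis but higher on the HOG1-KO axis.

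The WT responses of the experiments, which differ in library kit and in strain marker background, were compared with each other. None of the 9 genes passed (edgeR, experiment 2 minus experiment 1), where 2.58% of 6092 genes did. At an unadjusted p under 0.05 there were 5, a threshold for which no share of all genes is given here. DESeq2 called 1 of the 9, PIL1 (-0.62, adjusted p = 0.0159), and 395 of all genes, against 157 in the edgeR fit. Without both deviating WT libraries 814 of all genes passed. Of the 9, 3 passed there, SUR7 (-1.01, edgeR adjusted p = 0.00225), PUN1 (0.95, 0.0143) and PIL1 (-0.64, 0.0238). The range for PIL1 over the alternatives reached 0.527. The largest differences were -1.10 ± 0.37 for SUR7 (edgeR adjusted p = 0.139), -1.005 ± 0.94 for YNL194C (0.653) and 0.88 ± 0.30 for PUN1 (0.151). SUR7 passed without WT basal replicate 1 of experiment 2 (-1.32, edgeR adjusted p = 0.0311, range 0.00225 to 0.429) and PUN1 without WT salt replicate 2 of experiment 2 (1.04, 0.0391, range 0.0143 to 0.481).

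By level per coding length, NCE102 stood first in each of the WT groups, with 5451 CPM per kb in WT salt and 1147 in WT basal cells of experiment 1, and 5077 in WT salt and 1083 in WT basal cells of experiment 2. In HOG1-KO cells PIL1 stood first, with 1179.5 CPM per kb in salt and 662 in basal cells, where its libraries overlapped those of NCE102. Next in HOG1-KO salt cells came LSP1 (571 CPM per kb) and NCE102 (479.6), whose libraries overlapped, then SUR7 (358), PUN1 (127), FHN1 (47.4), SEG1 (18.0), FMP45 (12.2) and YNL194C (2.33). The order in WT salt cells of experiment 2 was NCE102, PIL1 (3956 CPM per kb), LSP1 (1594), PUN1 (755), FMP45 (436), SUR7 (260), YNL194C (259.9), FHN1 (73.8) and SEG1 (25.0). There NCE102 overlapped PIL1, FMP45 overlapped SUR7, and SUR7 overlapped YNL194C, so these neighbours are not separated. YNL194C and FMP45 were the lowest of the 9 in every basal group.

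The upstream sequences of the coat pair PIL1 and LSP1 and of the pair with the largest WT responses, FMP45 and YNL194C, are shown because these genes rose together in salt and differed in how much of the rise was left in HOG1-KO cells. Each runs 5′ to 3′ on the strand of the gene, from 250 bases before to 50 bases after the first base of the start codon, with the RefSeq sequence and annotation of build R64. Capitals mark the stress response element STRE (AGGGG, or CCCCT on the other strand), known as the site of the stress factors Msn2 and Msn4. The minus-strand windows are chrVII:650568-650867 for PIL1, chrXVI:551608-551907 for LSP1, chrIV:61752-62051 for FMP45 and chrXIV:273566-273865 for YNL194C.
PIL1: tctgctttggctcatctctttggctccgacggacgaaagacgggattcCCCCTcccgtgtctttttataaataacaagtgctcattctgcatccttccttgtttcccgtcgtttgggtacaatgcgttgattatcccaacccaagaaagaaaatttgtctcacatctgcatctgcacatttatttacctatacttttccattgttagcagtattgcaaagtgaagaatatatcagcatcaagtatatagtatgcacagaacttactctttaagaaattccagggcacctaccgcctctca
LSP1: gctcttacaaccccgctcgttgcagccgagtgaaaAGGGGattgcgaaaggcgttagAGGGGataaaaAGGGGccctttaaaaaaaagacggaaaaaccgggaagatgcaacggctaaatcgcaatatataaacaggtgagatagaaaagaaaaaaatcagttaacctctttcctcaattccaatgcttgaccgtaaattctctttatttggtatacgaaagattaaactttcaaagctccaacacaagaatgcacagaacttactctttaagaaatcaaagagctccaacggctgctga
FMP45: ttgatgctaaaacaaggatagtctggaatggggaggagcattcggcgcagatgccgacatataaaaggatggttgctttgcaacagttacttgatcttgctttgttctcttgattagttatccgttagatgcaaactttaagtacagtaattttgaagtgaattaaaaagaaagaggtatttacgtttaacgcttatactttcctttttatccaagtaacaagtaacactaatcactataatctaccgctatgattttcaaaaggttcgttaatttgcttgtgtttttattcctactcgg
YNL194C: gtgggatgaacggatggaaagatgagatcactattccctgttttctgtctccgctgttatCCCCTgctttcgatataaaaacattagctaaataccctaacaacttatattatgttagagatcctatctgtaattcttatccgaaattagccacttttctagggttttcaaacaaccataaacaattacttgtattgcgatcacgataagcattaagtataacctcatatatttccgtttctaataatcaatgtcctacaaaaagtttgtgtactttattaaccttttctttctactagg
LSP1 held 3 STRE matches, PIL1 and YNL194C 1 each and FMP45 0, and the other 5 genes had 0 in this window. Of 6020 promoters of the same length, 21.6% held at least 1 STRE and 2.92% held 2 or more. The CRE core (ACGTCA, both strands), bound by the Hog1 target Sko1, had 0 matches in the 9 windows, against 7.52% of all promoters. In a window of 500 bases before the start codon, chosen after seeing the data, 6 of the 9 genes held a STRE, against 34.0% of 6019 promoters, with 5 matches for PIL1, 4 for YNL194C, 3 each for LSP1 and NCE102, and 1 each for FMP45 and PUN1. The CRE core was found there in 5 of the 9, PIL1, LSP1, SEG1, FMP45 and PUN1, against 13.4%, with 2 overlapping matches for LSP1. SUR7 and FHN1 held neither motif in either window. Both PUN1 matches, the STRE 381 to 377 and the CRE core 485 to 480 bases before the start codon, lie beyond the nearest upstream gap. That gap, to the gene YLR415C, is 114 bp. These matches are letters in a window and not measured binding.

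Genes next to the members were examined because the counts could be shared with them, and those below were singled out after their values were seen. HBT1 (YDL223C) lies 466 bp downstream of FMP45 on the same strand of chromosome IV, and YNL195C lies 401 bp downstream of YNL194C on the same strand of chromosome XIV. HBT1 had 26.8, 30.6 and 26.0 CPM in HOG1-KO salt and 20.6, 20.1 and 18.0 CPM in HOG1-KO basal libraries, against 1064, 963 and 1189 CPM in WT salt and 11.2, 11.7 and 16.9 CPM in WT basal libraries of experiment 2. YNL195C had 7.46, 5.18 and 6.20 CPM in HOG1-KO salt and 10.7, 10.0 and 10.4 CPM in HOG1-KO basal libraries, against 255, 162 and 264 CPM in WT salt and 11.3, 12.3 and 9.95 CPM in WT basal libraries. Both neighbours thus had high levels in WT salt libraries alone, as FMP45 and YNL194C did. The difference between the responses was -5.83 ± 0.26 for HBT1 (edgeR adjusted p = 1.33e-09) and -5.07 ± 0.28 for YNL195C (1.06e-08). In HOG1-KO cells YNL195C fell in salt (-0.73 ± 0.20, edgeR adjusted p = 0.00695), whereas YNL194C rose. FHN1 and YGR130C, another eisosome gene, lie head to head on chromosome VII with 881 bp between their coding sequences, and PUN1 lies tail to tail with INA1, a tetraspan gene, at 169 bp. On its other side PUN1 has a nearer neighbour, YLR415C, 114 bp upstream on the same strand. YLR415C rose by 0.85 ± 0.18 in HOG1-KO cells, 2.80 ± 0.19 in WT cells of experiment 2 and 2.54 ± 0.48 in experiment 1. Its response was lower in HOG1-KO cells (-1.96 ± 0.26, edgeR adjusted p = 1.09e-04), as that of PUN1 was. Other neighbours also had a lower response in HOG1-KO cells. They were PDC6 beside PIL1 (-2.14 ± 0.49, edgeR adjusted p = 0.00917) and YNL193W beside YNL194C (-1.60 ± 0.20, 6.22e-05). YMR085W beside SEG1 (-1.05 ± 0.30, edgeR adjusted p = 0.0332), ULA1 beside LSP1 (-0.71 ± 0.19, 0.0225) and YGR130C (-1.09 ± 0.26, 0.0123) were lower too. INA1 and the neighbours not named here did not pass. Whether reads of neighbours entered the counts of these genes was not tested.

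The genes with patterns nearest to each member were found by the root mean square log2 difference over the 18 libraries, after centring within each experiment, among 5008 genes. For FMP45 the nearest were HBT1 (0.41), PHM7 (0.42) and MSC1 (0.48), and for PIL1 they were GLO1 (0.19), DDR48 (0.24) and YKL091C (0.24). LSP1 lay nearest to MCR1 (0.16), RRT8 (0.18) and RNY1 (0.22), and PUN1 to PIR3 (0.25), PYC1 (0.26) and YBR085C-A (0.26). NCE102 was nearest to YCX1 (0.38), POM33 (0.42) and PYC1 (0.44), and FHN1 to ORM2 (0.21), GSP2 (0.22) and SHH4 (0.23). The distances of FMP45 and NCE102 to their nearest genes were thus the widest among these members. This measure is not scaled to the size of each gene's changes. SUR7 was nearest to RPB7 (0.19), AUS1 (0.19) and the tryptophan permease gene TAT2 (0.20), and SEG1 to RTS1 (0.13), TAO3 (0.14) and AIM9 (0.14). YNL194C was below the level needed for this comparison.

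Among 15 other eisosome proteins and regulators, 12 rose in salt in HOG1-KO cells and 13 in WT cells of experiment 2, and 14 rose in WT cells of experiment 1, with medians of 0.62, 1.24 and 1.15 on the log2 scale. Of all genes tested, 28.8%, 30.1% and 35.4% rose in these comparisons. With the replicate number as a block 10 of the 15 rose in HOG1-KO cells, where YPK1 (0.46, edgeR adjusted p = 0.0516, range 5.71e-04 to 0.0782) and PST2 (0.59, 0.0923, range 5.28e-05 to 0.154) did not pass, and 12 rose in WT cells of experiment 2. None of the 15 fell in these comparisons by edgeR or DESeq2, or at an unadjusted p under 0.05. YGR130C, a coat component, had 59.4, 69.9 and 70.6 CPM in HOG1-KO salt and 17.5, 24.8 and 19.9 CPM in HOG1-KO basal libraries, against 77.5, 125 and 115 CPM in WT salt and 16.6, 14.5 and 15.1 CPM in WT basal libraries of experiment 2. It rose by 1.69 ± 0.18 in HOG1-KO cells and 2.78 ± 0.19 in WT cells of experiment 2 (edgeR adjusted p = 2.52e-06 and 7.47e-09), and by 2.38 ± 0.19 in experiment 1. SLM1, a lipid-binding regulator of TORC2 that moves out of eisosomes under membrane stress, rose by 1.05 ± 0.18 in HOG1-KO cells and 2.70 ± 0.19 in WT cells of experiment 2 (edgeR adjusted p = 1.76e-04 and 7.41e-09), and by 2.11 ± 0.12 in experiment 1. PKH2, a kinase that acts on Pil1, rose by 1.71 ± 0.18 in HOG1-KO cells and 1.45 ± 0.18 in WT cells (edgeR adjusted p = 1.96e-06 and 5.64e-06), and by 0.86 ± 0.17 in experiment 1. In salt, 7 of the 15 were lower in HOG1-KO than in WT cells and 0 were higher (12.4% and 12.8% of all genes), while DESeq2 called 8 lower and 1 higher. These were led by SLM1 (-1.77 ± 0.18, edgeR adjusted p = 2.21e-06) and the kinase YPK2 (-1.13 ± 0.16, 7.46e-05), which rose by 1.66 ± 0.10 in experiment 1. Of the 15, 3 had a lower response in HOG1-KO than in WT cells (5.24% of all genes), SLM1 (-1.65 ± 0.25, edgeR adjusted p = 4.37e-04), YGR130C (-1.09 ± 0.26, 0.0123) and YPK2 (-0.87 ± 0.23, 0.0235). With the replicate number as a block 1 of these passed, as YGR130C (edgeR adjusted p = 0.0518, range 0.00171 to 0.0655) and YPK2 (0.120, range 0.00194 to 0.120) did not, and DESeq2 called 5 of the 15. YPK2 also did not pass without WT basal or WT salt replicate 3, nor without replicate 1 or 2 of HOG1-KO basal or HOG1-KO salt, which made 6 of the 12 fits that left out a single library (edgeR adjusted p between 0.0585 and 0.0740). Between the strains in basal cells 0 of the 15 passed by edgeR or DESeq2 (0.982% of all genes by edgeR). At an unadjusted p under 0.05, for which no share of all genes is given here, 3 were higher in HOG1-KO cells.

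**Figure D5:**
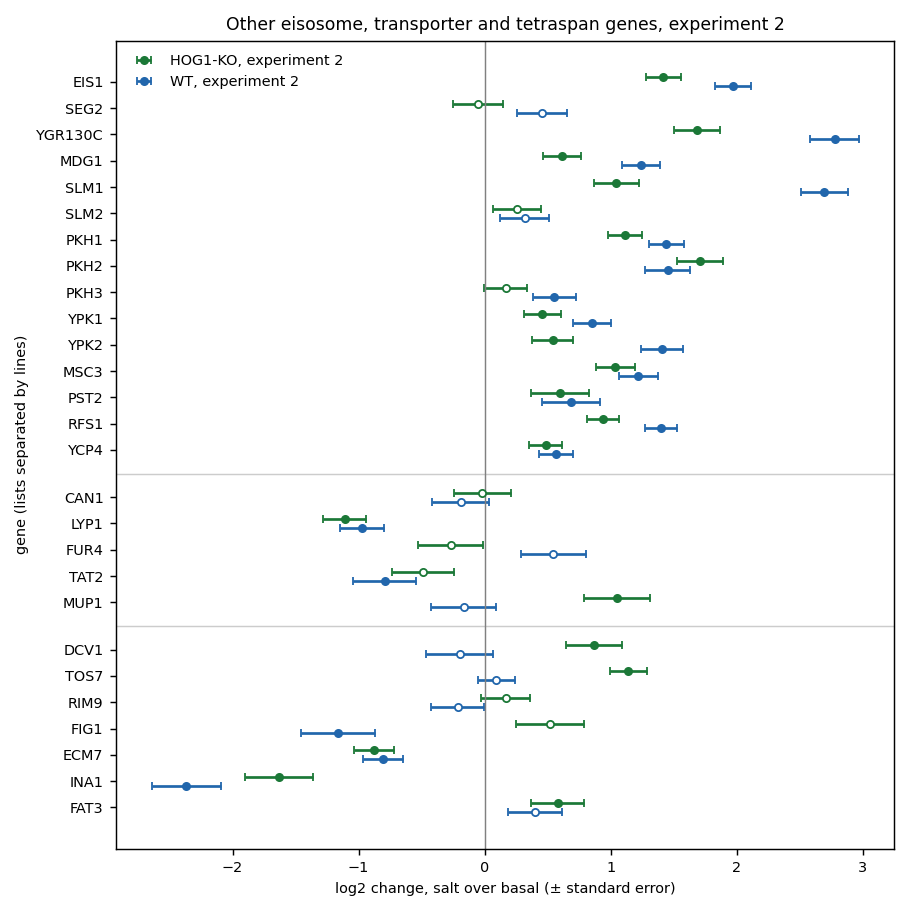
Fitted log2 change in salt over basal cells (± standard error) in HOG1-KO and WT cells of experiment 2 for 15 other eisosome proteins and regulators (top), 5 nutrient transporters of the domain (middle) and 7 other tetraspan or claudin-like genes (bottom). Filled points passed the edgeR test at an adjusted p under 0.05. The eisosome genes lie at or right of 0 in WT cells, and the other lists fall on both sides.

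The 5 nutrient transporters that gather in the membrane domain were counted in the same way. In HOG1-KO cells 1 rose and 1 fell (28.8% and 25.6% of all genes), in WT cells of experiment 2 0 rose (also by DESeq2 and at an unadjusted p under 0.05) and 2 fell (30.1% and 27.2% of all genes), and in experiment 1 there was 1 that rose and 2 that fell (35.4% and 33.8%). These counts of 5 genes were not tested against those shares. The arginine permease gene CAN1 was the one that rose in experiment 1 (0.24 ± 0.10, edgeR adjusted p = 0.0421, named after its value was seen), and it passed in 3 of 12 alternatives, with 5 of the 6 fits without a single library among those it did not pass (range 0.0127 to 0.166). The lysine permease gene LYP1 fell in HOG1-KO cells (-1.11 ± 0.17, edgeR adjusted p = 6.96e-05) and in WT cells of experiment 2 (-0.97 ± 0.17, 1.88e-04), and its change in experiment 1 was -0.07 ± 0.09 (0.512). TAT2 was at -0.49 ± 0.25 in HOG1-KO cells (edgeR adjusted p = 0.105) and fell in WT cells of experiment 2 (-0.79 ± 0.25, 0.0128) and in experiment 1 (-0.34 ± 0.12, 0.0192). In experiment 2 it did not pass without WT basal replicate 3 (-0.63, edgeR adjusted p = 0.0612) or in a fit of the WT libraries by themselves (0.0575). The methionine permease gene MUP1 rose in HOG1-KO cells (1.05 ± 0.26, edgeR adjusted p = 0.00321), was at -0.16 ± 0.26 in WT cells of experiment 2 (0.604), fell in experiment 1 (-0.30 ± 0.09, 0.0138) and was higher in HOG1-KO than in WT salt cells (1.05 ± 0.26, 0.00746). Its response was higher in HOG1-KO cells (1.21 ± 0.37, edgeR adjusted p = 0.0475), a call that passed in 7 of 19 alternatives. It did not pass with the replicate number as a block (edgeR adjusted p = 0.109), with RLE scaling (0.0525) or with a filter of 10 CPM in 3 libraries (0.0504). In fits without a single library it passed without WT basal replicate 1, WT salt replicate 2 or WT salt replicate 3 and not in the other 9 (edgeR adjusted p up to 0.127, range 2.00e-04 to 0.127). The uracil permease gene FUR4 was lower in HOG1-KO than in WT salt cells (-1.34 ± 0.26, edgeR adjusted p = 0.00130), with a change of -0.01 ± 0.08 in experiment 1 (0.886).

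Of 7 other tetraspan or claudin-like genes, 3 rose and 2 fell in HOG1-KO cells (28.8% and 25.6% of all genes), 0 rose (also by DESeq2 and at an unadjusted p under 0.05) and 3 fell in WT cells of experiment 2 (30.1% and 27.2%), and 1 rose and 4 fell in experiment 1 (35.4% and 33.8%). These counts of 7 genes were not tested against those shares. INA1 fell in all 3, with log2 changes of -1.63 ± 0.27 in HOG1-KO cells (edgeR adjusted p = 1.15e-04), -2.37 ± 0.27 in WT cells of experiment 2 (2.50e-06) and -2.66 ± 0.10 in experiment 1 (3.19e-10). FIG1, a membrane protein of mating cells, was at 0.52 ± 0.27 in HOG1-KO cells (edgeR adjusted p = 0.115) and fell in WT cells of experiment 2 (-1.16 ± 0.29, edgeR adjusted p = 0.00327) and experiment 1 (-1.81 ± 0.42, 0.00223). It was higher in HOG1-KO than in WT cells when basal (1.27 ± 0.28, edgeR adjusted p = 0.0418) and in salt (2.96 ± 0.30, 2.21e-06), and its response was higher in HOG1-KO cells (1.68 ± 0.40, 0.0120). The basal call of FIG1 was lost without WT basal replicate 2 or 3, HOG1-KO basal replicate 1 or 3, or any HOG1-KO salt replicate, with RLE scaling (edgeR adjusted p = 0.0515) and with a filter of 10 CPM in 3 libraries (0.0588), in a range of 0.00226 to 0.241. TOS7 rose in HOG1-KO cells (1.14 ± 0.15, edgeR adjusted p = 1.09e-05), was at 0.09 ± 0.14 in WT cells of experiment 2 (0.597), fell in experiment 1 (-0.30 ± 0.09, 0.0126) and had a higher response in HOG1-KO cells (1.05 ± 0.20, 0.00316). DCV1 rose in HOG1-KO cells (0.87 ± 0.22, edgeR adjusted p = 0.00424), with -0.20 ± 0.26 in WT cells of experiment 2 (0.542), and was higher in HOG1-KO than in WT salt cells (1.73 ± 0.24, 5.65e-05), with 0.25 ± 0.40 in experiment 1 (0.595). Its counts were low, with 301 over the HOG1-KO salt and 138 over the HOG1-KO basal libraries. WT salt and WT basal libraries had 76 and 77 in experiment 2, and 54 and 41 in experiment 1. ECM7 fell in HOG1-KO cells (-0.88 ± 0.16, edgeR adjusted p = 2.54e-04), in WT cells of experiment 2 (-0.81 ± 0.16, 4.66e-04) and in experiment 1 (-0.29 ± 0.10, 0.0177). In experiment 1 the calls of TAT2, MUP1, TOS7 and ECM7 were each lost without WT basal replicate 3 and without 1 or more of WT basal replicate 2 and WT salt replicates 2 and 3 (edgeR adjusted p between 0.0509 and 0.0965).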

How the data were processed

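RNA was measured in 18 libraries, in 6 groups of 3 biological replicates per the labels. The authors deposited raw counts per gene, 1 table per experiment. Per the submitters' processing notes, HISAT2 2.1.0, featureCounts 1.5.1 and build R64 were used; no source names the annotation release, the strand setting or the handling of multi-mapped reads. All table columns matched a sample, with 0 left unmapped.

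The counts were tested with edgeR 4.0.16 in R 4.3.3, with TMM scaling, filterByExpr, and robust quasi-likelihood F tests on contrasts of group means. P-values are two-sided and adjusted by Benjamini-Hochberg over all genes tested, called under 0.05. Experiment 1 was fitted on its 6 libraries, experiment 2 on its 12, and the difference between WT responses on the 12 WT libraries, for 7 comparisons. The test was checked on simulated data. Levels are TMM-scaled CPM, mean ± SD, and log2 changes have standard errors. Each standard error was derived from the test, as the absolute log2 change divided by the square root of its F statistic. Ratios within libraries were compared by exact permutation. Python 3.11.15 was used for sequences and figures. Intervals reflect these libraries only.

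The 9 genes and the gene lists were chosen with earlier results of these data known. Named genes were the 9 members, SEG2, and the 3 genes nearest in pattern. The 2 largest called changes each way per list and comparison of experiment 2 were also named, with their change in experiment 1. Neighbours on the chromosome were named where overlap was at issue or where their responses differed between the strains. Protein sequences were not used here.

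Same-numbered HOG1-KO salt and basal libraries deviated together (r = 0.163, 0.326 and 0.179 over 6107 genes). Differently numbered ones had r between -0.258 and 0.0775. The sources used here do not say whether the numbers mark shared cultures, so a pairing of those libraries is possible but not established. In WT cells same-numbered libraries did not deviate together throughout (-0.418, 0.0347 and -0.353 in experiment 1, and -0.536, -0.519 and 0.504 in experiment 2). Values as reported come from fits without a block, and the block is an alternative. Alternatives were DESeq2 1.42.0, RLE scaling, total counts alone, no filter, a filter of 10 CPM in 3 libraries, only the libraries compared, a replicate block, leaving out each library, and leaving out both deviating WT libraries, which were known from earlier work on these data.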

Additional observations from a re-analysis of the deposited data

Results flagged for a closer look

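Differences between the salt responses of HOG1-KO and WT cells (HOG1-KO minus WT, log2, edgeR adjusted p under 0.05) mark 6 of the 9 genes. These are PIL1 (-1.79), LSP1 (-1.42), FMP45 (-5.20), YNL194C (-6.71), PUN1 (-2.41) and NCE102 (-2.18). Among the related genes, YGR130C (-1.09), SLM1 (-1.65) and YPK2 (-0.87) had the lower response in HOG1-KO cells, and MUP1 (1.21), TOS7 (1.05) and FIG1 (1.68) had the higher one. Of 19 alternatives, MUP1 passed in 7, YPK2 in 11 and YGR130C in 17, and SLM1, TOS7 and FIG1 passed in all. Groups held 3 libraries, which is too few for the check for a single far library.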

How the results depend on the processing

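Of the results for the 9 genes under the alternatives, 1099 kept their direction and their side of the threshold, 26 newly passed, 21 no longer passed and 23 changed sign. Between the strains in basal cells, 0 of the 9 genes passed with RLE scaling, with the 10 CPM filter or with the replicate block, 2 passed without both deviating WT libraries, and 0 to 1 passed when single libraries were left out. Between the WT responses of the experiments, 1 passed with total counts alone, 1 with DESeq2, 3 without both deviating WT libraries, and 0 to 1 without single libraries. Of all genes, 122, 395 and 814 passed in the first 3 of these, against 157 in the fit as reported. Changes of sign were among differences that were not called. In basal cells (HOG1-KO minus WT) total counts alone gave 0.10 for LSP1, 0.0588 for YNL194C and 0.0104 for PUN1, and FMP45 was -0.0690 without both deviating libraries. Without single libraries those differences ran from -0.21 to 0.20 for PIL1, -0.0644 to 0.15 for FMP45 and -1.05 to 1.07 for YNL194C. The HOG1-KO response of NCE102 ran from -0.13 to 0.14. Between the WT responses, NCE102 was 0.13 and FHN1 0.11 with total counts alone, and 0.00825 and 0.0461 without both deviating libraries. Without single libraries these ran from -0.31 to 0.18 for NCE102, -0.24 to 0.14 for FHN1 and -1.69 to 0.15 for YNL194C. The cause was not tested. Scaling by total counts moved the median of all genes to 0.206 (WT, experiment 2), 0.195 (HOG1-KO), 0.171 (basal, HOG1-KO minus WT) and 0.159 (salt, HOG1-KO minus WT). Over all genes, 360 responses differed between the strains with the replicate block (148 higher and 212 lower) against 599 without it (279 and 320), 996 without WT salt replicate 2 and 1248 without both deviating libraries. In basal cells 1053 genes differed without both, 130 with DESeq2 and 60 in the fit as reported. In the blocked fits no call among the 9 genes changed other than NCE102 in basal cells. The few basal counts of YNL194C and groups of 3 libraries limit precision.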
